A study of Rattus norvegicus with 9 samples.

Results

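The transforming growth factor β (TGF-β) system was followed through 9 rat genes: the ligands Tgfb1, Tgfb2 and Tgfb3, the latent ligand binder Ltbp1, the secreted binder Fstl1, the type II receptor Tgfbr2, and the target genes Ccn2 (connective tissue growth factor, formerly Ctgf), Smad7 and Id1. Their probes were found by accession, as all non-control probes that belong to 1 of these genes. They have 12 of the 30367 probes on the array and stand among 15168 genes with a probe, and all 9 passed the filter on dim probes that left 11047 genes for testing. Bladders of female rats were compared in 3 groups of 3 arrays at 3 weeks: partial bladder outlet obstruction (pBOO) with tolterodine, pBOO alone, and sham operation. Tolterodine blocks muscarinic acetylcholine receptors, and the rats given it were obstructed as well. Obstruction was made by tying the proximal urethra around a catheter, which was not done in the sham group. The labels used here give no strain, age, dose or dosing schedule. They also do not say whether an array carries 1 animal or a pool: 5 specimens per group were examined and 1 µg of RNA was labelled. The p-values therefore measure the spread between arrays, which may be technical in part.

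TGF-β is secreted in a latent form. A propeptide keeps the ligand inactive, and latent TGF-β binding proteins tether the complex to the matrix until integrins or proteases free it. The active ligand joins a type II and a type I receptor, which phosphorylate SMAD proteins that enter the nucleus and switch on matrix genes and Smad7, an inhibitor that feeds back on the receptors. The related bone morphogenetic proteins (BMPs) act through other SMADs and switch on Id1. In the bladder wall TGF-β is known for its link with collagen deposition and with the state of smooth muscle.

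All levels are log2 processed signals minus the array's 75th percentile, so 0 is that percentile, and a level is compared only with the same probe's level on other arrays. Differences are log2 fold changes of the limma fit over all 9 arrays, with the standard error (SE) of the fit, and a gene was called at a Benjamini-Hochberg adjusted p under 0.05 over all 11047 genes. The treatment protocol gives the letter S to obstruction and C to sham operation, whereas sample codes beginning with S belong to arrays titled sham and codes beginning with C to arrays titled pBOO. The titles were followed, and the direction of each comparison rests on them. Per array 72.1% to 80.1% of the spots exceeded background by Agilent's flag for well above background, and 0 were saturated. The array sham 1 stood apart from its group: it differed by more than 2-fold from sham 2 in 929 genes and from sham 3 in 648, against 135 between sham 2 and sham 3. It shared slide 2 with the 3 pBOO arrays, while slide 1 held sham 2, sham 3, tolterodine 1 and tolterodine 2, and tolterodine 3 was alone on slide 3. The 10 smooth muscle and 9 urothelial markers with a probe were well above background on all 9 arrays, as the tissue label has it.

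In arrays titled pBOO against sham, 7 of the 9 genes changed, beside 42.5% of all genes tested. Ltbp1 was 5.86-fold higher, Tgfb2 and Fstl1 were each 2.78-fold higher and Smad7 was 1.60-fold higher. Ccn2 was 2.96-fold lower, Tgfb3 2.56-fold lower and Tgfb1 1.76-fold lower. So 4 genes rose, beside 20.8% of all genes, and 3 fell, beside 21.7%. The groups did not overlap in any of the 9 genes, beside 55.7% of all genes. The median log2 fold change was 0.22 over the members and -0.04 over all genes, which normexp background correction moved to -0.14. Without sham 1 again 4 of them rose and 3 fell. Sham 1 is the only sham array on the slide of the pBOO arrays. Values of pBOO against sham without it, here and below, therefore cannot separate group from slide. RNA of a whole bladder was measured, so fewer cells of a type and less RNA per cell cannot be told apart.

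In arrays of pBOO with tolterodine against pBOO, 5 of the 9 genes changed, beside 41.3% of all genes tested. Ccn2 was 4.28-fold higher and Tgfb1 1.91-fold higher, beside 26.0% of all genes that were called higher. Ltbp1 was 2.99-fold lower, Smad7 1.74-fold lower and Id1 1.73-fold lower, beside 15.3% called lower. For all genes, higher calls made up 62.9% of the calls, and 52.7% with quantile normalization. The groups did not overlap in 8 of the 9 genes, Tgfb3 being the exception, beside 58.7% of all genes. The median was 0.32 over the members and 0.11 over all genes, which quantile normalization moved to 0.01. No slide held arrays of both groups. In this fit, which has no slide term, differences between these groups therefore cannot be told apart from differences between slides. Arrays on the same slide had a consensus correlation of 0.626 when slide was a random block.

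In arrays of pBOO with tolterodine against sham, 5 of the 9 genes changed, beside 24.4% of all genes tested. Fstl1 was 3.47-fold higher, Tgfb2 2.06-fold and Ltbp1 1.96-fold, beside 17.8% of all genes called higher. Id1 was 2.08-fold lower and Tgfb3 1.93-fold lower, beside 6.58% called lower. For all genes, higher calls made up 73.0% of the calls, 58.2% with quantile normalization and 49.9% with array median scaling. The groups did not overlap in 6 of the 9 genes, beside 43.1% of all genes. The median was 0.53 over the members and 0.09 over all genes, which array median scaling moved to -0.05. The 3 comparisons share arrays in pairs, so their values are given side by side and not as separate evidence.

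**Figure D1:**
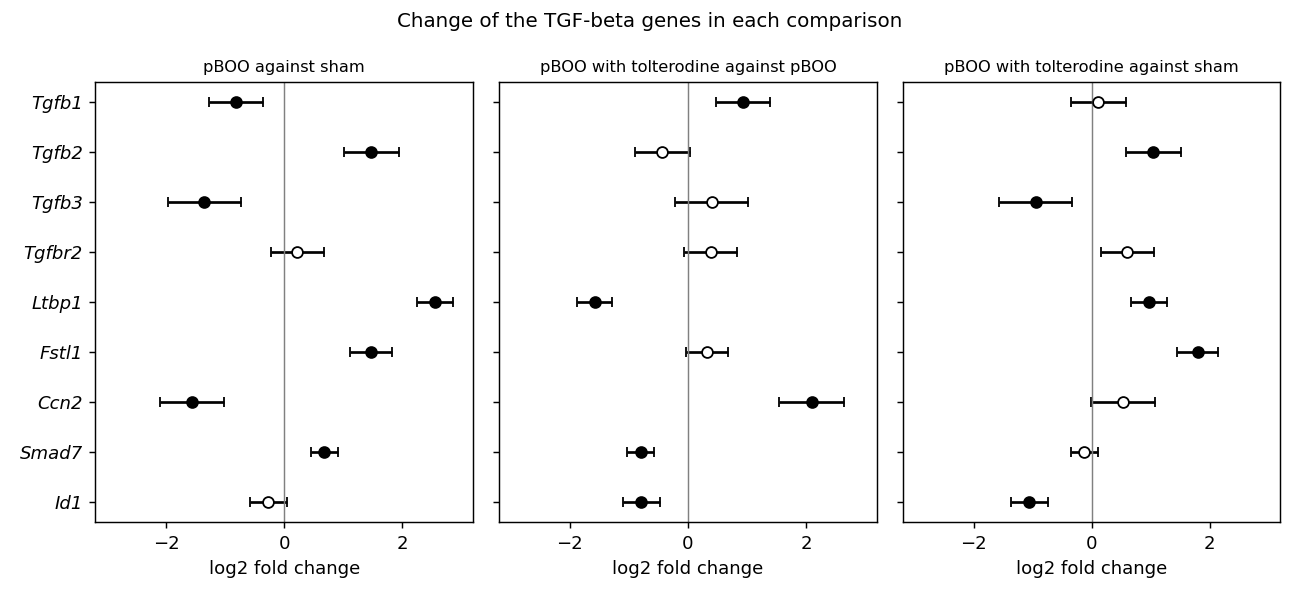
Log2 fold changes of the 9 genes in the 3 comparisons, with the 95% interval of the limma fit; filled points passed an adjusted p of 0.05. Ltbp1 had the largest value in size with pBOO against sham at 2.55, and Ccn2 with tolterodine against pBOO at 2.10.

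The 3 ligands are separate genes for closely related cytokines, and in pBOO against sham they did not move one way: Tgfb2 rose, and Tgfb1 and Tgfb3 fell. Tgfb1, the form made by many immune and stromal cells, had levels of -2.90, -2.96 and -2.69 in the tolterodine arrays, -3.89, -3.69 and -3.77 in the pBOO arrays and -2.49, -3.35 and -3.05 in the sham arrays. The 3 pBOO arrays lay below all other arrays, and the tolterodine arrays lay within the range of the sham arrays. Its probe is spotted 10 times on each array, with an SD between spots of 0.0396 to 0.0968, against an SD between arrays of 0.14 with tolterodine, 0.10 in pBOO and 0.44 in sham (n = 3 each). Tgfb1 fell with pBOO against sham, by 0.82 (SE 0.20; adjusted p = 0.0117). The fall was 0.58 without sham 1 (adjusted p = 0.0111) and 1.29 within slide 2, where sham 1 alone stands for sham. Tolterodine arrays were higher than pBOO arrays by 0.93 (SE 0.20; adjusted p = 0.00664), a value of 0.58 with normexp background correction and of 1.57 with slide as a fixed block, which links these groups through sham 1. The difference between tolterodine and sham was 0.12 (95% interval -0.35 to 0.58; adjusted p = 0.714).

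Tgfb2, the ligand known for its part in the development of mesenchyme and muscle, had levels of -2.24, -2.11 and -2.51 with tolterodine, -1.65, -2.08 and -1.83 in pBOO and -2.97, -3.70 and -3.31 in sham. All 6 obstructed arrays lay above the 3 sham arrays, and the tolterodine arrays lay between the other two groups. Tgfb2 rose with pBOO against sham by 1.48 (SE 0.20; adjusted p = 6.73e-04), 1.65 without sham 1, 1.12 within slide 2 and 0.91 with normexp. It also rose with tolterodine against sham, by 1.04 (SE 0.20; adjusted p = 0.00792). With normexp the value was 0.57 and did not pass (adjusted p = 0.0524). The difference of -0.43 between tolterodine and pBOO did not pass (adjusted p = 0.120), and its sign turned to 0.21 with slide as a fixed block and to 0.36 with the mean of both probes. A second probe of Tgfb2 lay near background in pBOO and sham. Its mean level was -4.54 ± 0.48 with tolterodine, -5.69 ± 0.09 in pBOO and -5.85 ± 0.76 in sham (SD, n = 3 each), where it was well above background on 1 of 3 arrays. All 3 pBOO readings of that probe were well above background. Its fit gave 0.15 for pBOO against sham (SE 0.36; adjusted p = 0.76), so the rise on the brighter probe was not seen on this probe. Sham 2 (-5.32) and sham 3 (-5.51) read above the pBOO arrays (-5.80 to -5.62), and sham 1 (-6.73) below them. As sham 1 and sham 3 were not well above background, that fit cannot decide whether Tgfb2 rose. On the same probe tolterodine was higher than pBOO by 1.16 (adjusted p = 0.0327). The mean of both probes gave 0.82 for pBOO against sham.

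The promoter of Tgfb2 is shown because this ligand moved against the other two. It holds the E-box CACGTG, marked in capitals, 229 bases before the start of the gene. CACGTG, which reads the same on both strands, occurs in 5.59% of 33469 RefSeq rat promoters of the same 250 bases. The sequence is RefSeq's, assembly GRCr8, chr13:100792686-100792935, minus strand, read 5′ to 3′ toward the start of the gene.
Tgfb2: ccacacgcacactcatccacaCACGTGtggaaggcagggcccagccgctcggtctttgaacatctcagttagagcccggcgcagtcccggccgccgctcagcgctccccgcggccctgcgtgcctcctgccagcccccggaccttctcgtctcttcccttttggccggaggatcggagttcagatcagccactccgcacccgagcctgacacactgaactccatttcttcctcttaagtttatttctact

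Tgfb3, the third ligand, had levels of 0.63, 0.34 and 1.21 with tolterodine, 0.55, 0.11 and 0.30 in pBOO and 2.16, 1.30 and 1.56 in sham. The 3 sham arrays were the highest, with sham 1 above the rest, and the tolterodine and pBOO arrays overlapped. Tgfb3 fell with pBOO against sham by 1.35 (SE 0.27; adjusted p = 0.00440), by 1.11 without sham 1 and by 1.84 within slide 2. It fell with tolterodine against sham by 0.95 (SE 0.27; adjusted p = 0.0359). That call was lost without sham 1 (-0.71, adjusted p = 0.0651), without sham 3, tolterodine 1, tolterodine 2 or pBOO 3, and with no filter on dim probes. Within slide 1, which has only tolterodine 1, tolterodine 2, sham 2 and sham 3, the value was -0.95 (adjusted p = 0.00843). Between tolterodine and pBOO the difference of 0.41 did not pass (adjusted p = 0.262), though with slide as a fixed block it did at 0.89 (adjusted p = 0.0470).

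**Figure D2:**
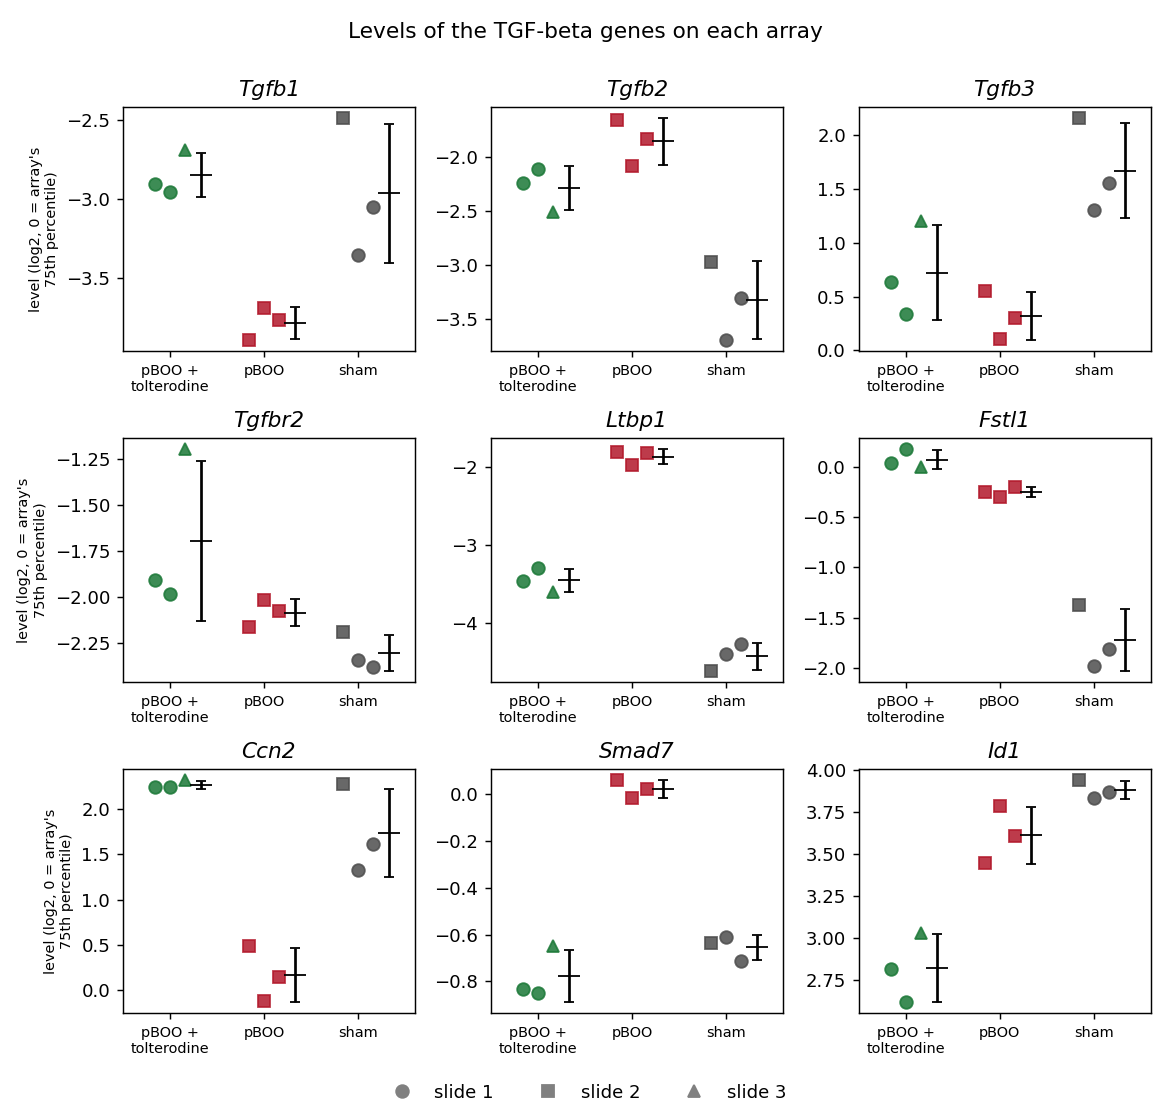
Level of each gene (log2 processed signal relative to the array's 75th percentile) on the 9 arrays, with tolterodine, pBOO and sham from left to right; marker shapes give the slide, and bars the group mean ± SD (n = 3). Ltbp1 lies between -1.98 and -1.81 on the pBOO arrays, and Ccn2 between -0.11 and 0.48, each apart from all other arrays.

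Because a scaling error moves all genes of an array together, the ligands were also compared within each array. The difference between the levels of Tgfb2, on its brighter probe, and Tgfb1, set to the mean of the sham arrays, was 1.03, 1.21 and 0.54 with tolterodine, 2.61, 1.98 and 2.30 in pBOO and -0.12, 0.01 and 0.11 in sham. The 3 groups did not overlap in this difference. In pBOO the balance of Tgfb2 over Tgfb1 was thus shifted by 2.29 on the log2 scale against sham, and with tolterodine by 0.93. The balance of Tgfb2 over Tgfb3 was shifted by 1.99 with tolterodine and by 2.83 in pBOO, both against sham. Sham 1 did not stand apart in either difference, as it does in the levels of Tgfb1 and Tgfb3. Of Ltbp1 over Tgfb1 the shift was 3.37 for pBOO against sham and -2.51 for tolterodine against pBOO. A two-sided exact permutation test of 3 arrays against 3 cannot go below p = 0.1. Of 18 such shifts, chosen with the levels known, 16 were at that p (0.1125 after adjustment over the family).

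**Figure D3:**
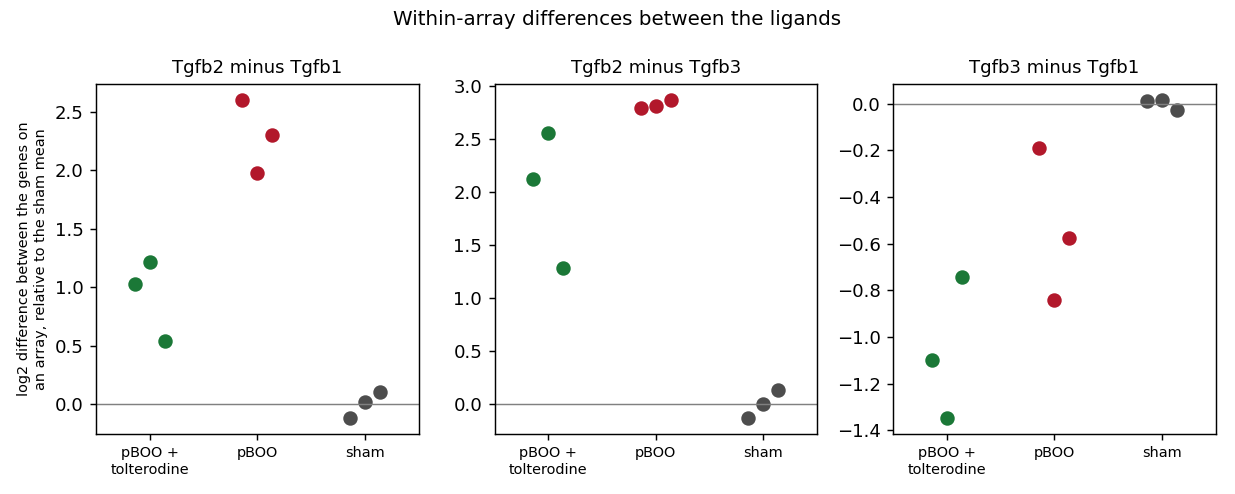
Differences between the levels of the ligands on each array, relative to the mean of the 3 sham arrays (log2 scale), with tolterodine, pBOO and sham from left to right. Tgfb2 minus Tgfb1 lies between 1.98 and 2.61 on the pBOO arrays and between -0.12 and 0.11 on the sham arrays.

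Ltbp1, which binds latent TGF-β and anchors it in the matrix, was the only member called in all 3 comparisons. Its levels were -3.46, -3.29 and -3.59 with tolterodine, -1.81, -1.98 and -1.82 in pBOO and -4.61, -4.39 and -4.27 in sham. In unscaled intensity its spot read 81.8, 110 and 43.3 units with tolterodine, 411, 261 and 269 units in pBOO and 30.9, 39.1 and 30.5 units in sham. Each group kept to a range of its own on the scaled level, with pBOO highest and sham lowest. Ltbp1 rose with pBOO against sham by 2.55 (SE 0.13; adjusted p = 7.62e-06), which placed it 24th by p and 119th by size of rise among 11047 genes. It rose by 2.46 without sham 1 and by 2.74 within slide 2. It fell with tolterodine against pBOO by 1.58 (SE 0.13; adjusted p = 4.39e-05). Tolterodine arrays were still higher than sham by 0.97 (SE 0.13; adjusted p = 0.00174). Sham levels were dim, and with normexp, which corrects the background another way, the values of these 3 comparisons were 1.37, -1.0 and 0.37. The last of these no longer passed (adjusted p = 0.129).

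The promoter of Ltbp1 is shown as that of the member with the largest rise. It holds the SMAD box CAGAC on the other strand, read as GTCTG and marked in capitals, 99 bases before the start. CAGAC or its reverse complement is in 42.9% of all promoters of that length, so this match is a description and not a site. The longer SMAD palindrome GTCTAGAC is in 0.173% of promoters and in 0 of the 9 members' promoters. The sequence is from RefSeq, GRCr8, chr6:26177302-26177551, minus strand, 5′ to 3′.
Ltbp1: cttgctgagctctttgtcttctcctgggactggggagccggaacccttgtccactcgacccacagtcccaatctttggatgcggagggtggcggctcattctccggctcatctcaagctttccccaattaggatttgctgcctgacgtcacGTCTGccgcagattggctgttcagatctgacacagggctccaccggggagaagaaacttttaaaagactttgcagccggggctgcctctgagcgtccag

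Fstl1, a secreted glycoprotein of stromal cells that binds ligands of the TGF-β family, was higher in both obstructed groups than in sham. Its levels were 0.04, 0.18 and 0.00 with tolterodine, -0.25, -0.29 and -0.20 in pBOO and -1.38, -1.98 and -1.81 in sham. The groups did not overlap, and sham 1 was the highest of the sham arrays. Fstl1 rose by 1.79 with tolterodine against sham (SE 0.16; adjusted p = 3.24e-04), 155th by size among all genes, and by 1.47 with pBOO against sham (SE 0.16; adjusted p = 1.74e-04). Without sham 1 these values were 1.97 and 1.65, within slide 1 the value with tolterodine was 2.00, and within slide 2 that of pBOO was 1.13. For tolterodine against pBOO the difference of 0.32 did not pass (adjusted p = 0.128). It passed without sham 1 at the same 0.32 (adjusted p = 0.0277) and with slide as a fixed block at 0.88 (adjusted p = 0.00645). A second probe of Fstl1 was left out of the test because its spots were flagged on 4 of 9 arrays. The unflagged arrays of that probe had a level of -1.36 with tolterodine (1 array) and means of -1.24 in pBOO (2 arrays) and -2.30 in sham (2 arrays).

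Tgfbr2, the type II receptor that all 3 ligands need, passed the threshold in none of the comparisons on its brighter probe. Its levels were -1.91, -1.99 and -1.20 with tolterodine, -2.16, -2.02 and -2.07 in pBOO and -2.19, -2.34 and -2.38 in sham. The groups did not overlap, but tolterodine 3 lay well above the rest, and the ranges of pBOO and sham nearly touched. The differences were 0.22 for pBOO against sham (95% interval -0.23 to 0.67; adjusted p = 0.401), 0.39 for tolterodine against pBOO (adjusted p = 0.146) and 0.61 for tolterodine against sham (adjusted p = 0.0540). The last value passed when only genes well above background on all arrays were kept (adjusted p = 0.0444). Within slide 1, which does not hold tolterodine 3, tolterodine was higher than sham by 0.41 (adjusted p = 0.0134). A second, dimmer probe was well above background on all 6 obstructed arrays and on 0 of the 3 sham arrays. On that probe the fit gave rises against sham of 1.31 with tolterodine (adjusted p = 0.00333) and 1.14 in pBOO (adjusted p = 0.00270). These rest on sham readings that were not well above background, and the probe passed the filter through the obstructed arrays alone. Each sham reading was also raised to the lowest level still well above background on its array, unless it was higher. The rises were then 2.10-fold with tolterodine and 1.86-fold in pBOO. These are not strict lower bounds: sham 1 read -5.44, above that level of -5.64, and was still not well above background. The mean of both probes, which uses the same dim sham readings, passed against sham. It gave 0.68 for pBOO (adjusted p = 0.0192) and 0.96 with tolterodine (adjusted p = 0.00844).

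Ccn2, a matricellular protein and a standard readout of TGF-β and of the YAP and TEAD pathway, was lower on the arrays titled pBOO than on all others. Its levels were 2.24, 2.24 and 2.32 with tolterodine, 0.48, -0.11 and 0.14 in pBOO and 2.27, 1.32 and 1.62 in sham. The pBOO arrays did not overlap the rest, and sham 1 lay within the tolterodine range. Its probe has 10 spots, with an SD between them of 0.0230 to 0.0571, while the SD between arrays was 0.05 with tolterodine, 0.30 in pBOO and 0.49 in sham. Ccn2 fell with pBOO against sham, by 1.57 (SE 0.24; adjusted p = 0.00112), by 1.30 without sham 1 and by 2.10 within slide 2. It rose with tolterodine against pBOO by 2.10 (SE 0.24; adjusted p = 2.33e-04), 248th by size of 11047 genes. With the names pBOO and sham exchanged this comparison would give 0.53, which does not pass. For tolterodine against sham the difference of 0.53 did not pass (95% interval -0.02 to 1.07; adjusted p = 0.140). It passed without sham 1 at 0.80 (adjusted p = 0.0123) and within slide 1 at 0.77 (adjusted p = 0.00868). Relative to Tgfb1 on the same array, Ccn2 was shifted by -0.75 for pBOO against sham and by 1.16 for tolterodine against pBOO.

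The promoter of Ccn2 is shown because it alone among the members holds the TEAD motif GGAATG, marked in capitals. It lies there 3 times, starting 166, 101 and 92 bases before the start of the gene. GGAATG or its reverse complement is in 12.1% of the 33469 promoters, and 3 or more copies are in 0.0807%. A SMAD box CAGAC starts 174 bases before the start and a TATAAA, which 12.9% of promoters hold on either strand, 31 bases before it. Neither match overlaps a TEAD motif. A match is a description of the sequence, and binding was not measured here. The sequence is from RefSeq, GRCr8, chr1:22624615-22624864, minus strand, 5′ to 3′.
Ccn2: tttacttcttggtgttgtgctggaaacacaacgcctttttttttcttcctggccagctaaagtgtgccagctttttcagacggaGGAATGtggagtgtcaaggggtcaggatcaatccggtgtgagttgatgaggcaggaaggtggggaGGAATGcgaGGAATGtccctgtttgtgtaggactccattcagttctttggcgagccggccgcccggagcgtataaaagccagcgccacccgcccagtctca

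Smad7, the inhibitory SMAD that TGF-β itself switches on, was higher in the arrays titled pBOO than in all others. Its levels were -0.83, -0.85 and -0.65 with tolterodine, 0.06, -0.02 and 0.02 in pBOO and -0.64, -0.61 and -0.71 in sham. The tolterodine and sham arrays overlapped. Smad7 rose with pBOO against sham by 0.68 (SE 0.10; adjusted p = 0.00105), by 0.69 without sham 1 and by 0.66 within slide 2. It fell with tolterodine against pBOO by 0.80 (SE 0.10; adjusted p = 4.35e-04). The difference between tolterodine and sham was -0.12 (95% interval -0.35 to 0.11; adjusted p = 0.408). Smad7 and Ccn2, both known targets of TGF-β, thus moved in opposite directions in each comparison that involved pBOO. The GC-rich SMAD site GGCGCC is in its promoter at 96 and 36 bases before the start, and in 8.69% of all promoters.

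Id1, an inhibitor of basic helix-loop-helix factors and the usual readout of BMP signalling, was lowest with tolterodine. Its levels were 2.82, 2.62 and 3.03 with tolterodine, 3.45, 3.79 and 3.61 in pBOO and 3.94, 3.83 and 3.87 in sham. The 3 groups did not overlap. Id1 fell by 1.06 with tolterodine against sham (SE 0.14; adjusted p = 0.00147), 242nd by size of fall, and by 1.13 within slide 1. It fell by 0.79 with tolterodine against pBOO (SE 0.14; adjusted p = 0.00226). With pBOO against sham the difference of -0.27 did not pass (adjusted p = 0.149), and with quantile normalization its sign turned to 0.17. Relative to Id1 on the same array, Smad7 was shifted by 0.94 both for tolterodine and for pBOO against sham, and by -0.01 for tolterodine against pBOO.

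Around the members, a list of 82 other genes of TGF-β and BMP signalling was read by role, of which 65 were tested. With pBOO against sham 26 rose and 8 fell (median 0.38), with tolterodine against pBOO 13 rose and 14 fell (median 0.05), and with tolterodine against sham 21 rose and 4 fell (median 0.35). Over all genes the medians were -0.04, 0.11 and 0.09 in that order. Called higher were 20.8%, 26.0% and 17.8% of all genes, and lower 21.7%, 15.3% and 6.58%. With tolterodine against pBOO the share of the list called was near the 41.3% of all genes. The role counts below stand beside the same shares.

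Latency and activation genes went both ways, and with pBOO against sham the share called was near that of all genes. Of 12 tested, 3 rose and 2 fell. Those that rose were the latent TGF-β binding proteins Ltbp4 at 1.47 (adjusted p = 6.67e-04) and Ltbp3 at 1.40 (adjusted p = 1.11e-04), and the proteoglycan Bgn at 1.00 (adjusted p = 9.66e-04). Ltbp2, a microfibril protein that does not bind latent TGF-β, fell by 0.96 (adjusted p = 0.037) and the integrin subunit Itgb6, which activates TGF-β on epithelia, fell by 0.86 (adjusted p = 0.00149). With tolterodine against pBOO, where Ltbp1 fell, 5 rose and 2 fell. Ltbp2 rose by 3.01 (adjusted p = 1.41e-04) and Itgb6 by 0.72 (adjusted p = 0.00375), while Ltbp4 fell by 1.45 (adjusted p = 7.10e-04). With tolterodine against sham 5 rose and 0 fell, including Ltbp2 at 2.06, Bgn at 1.01 and Ltbp3 at 0.84.

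Of 6 other receptor genes, 3 rose and 0 fell with pBOO against sham, beside 42.5% of all genes called. The coreceptor Tgfbr3 rose by 1.69 (adjusted p = 3.06e-05), the decoy receptor Bambi by 1.1 (adjusted p = 0.00989) and the type I receptor Acvrl1 of endothelium by 0.95 (adjusted p = 1.88e-04). With tolterodine against pBOO 0 rose and 2 fell, where Bambi fell by 2.44 (adjusted p = 1.70e-04) and Acvrl1 fell by 0.60 (adjusted p = 0.00202). With tolterodine against sham Tgfbr3 rose by 1.74 and Acvrl1 by 0.35, and Bambi fell by 1.34. In sham Tgfbr3 had a mean level of -5.90, below the lowest level well above background on each sham array (-5.64, -5.70 and -5.56). Both rises of Tgfbr3 therefore rest on sham readings near background, and their sizes are not exact. Tgfbr1, the type I receptor for the 3 ligands, stood at differences of -0.03 for pBOO against sham, 0.17 for tolterodine against pBOO and 0.14 for tolterodine against sham, and passed in none.

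Beside 42.5% of all genes called with pBOO against sham, 4 of 6 tested SMAD genes and regulators rose and 0 fell. They include the ubiquitin ligase Smurf2, which targets SMADs and receptors, at 0.96 (adjusted p = 5.73e-04), the shared partner Smad4 at 0.91 (adjusted p = 0.00516) and the phosphatase Ppm1a at 0.67 (adjusted p = 8.71e-04). With tolterodine against pBOO Smurf2 fell by 0.57 and Ppm1a by 0.34, and 0 rose. With tolterodine against sham Smad4 rose by 0.60 (adjusted p = 0.0494, with overlapping groups) and Ppm1a by 0.33 (adjusted p = 0.0392). Smad2, which carries the signal of the TGF-β receptors, had differences of -0.09, 0.06 and -0.03 in the same order and passed in none. Smad3 was too dim to be tested.

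Among 15 target genes, 6 rose and 2 fell with pBOO against sham, beside 42.5% of all genes called. The transcription factor Snai2 rose by 1.04 (adjusted p = 0.00310) and the collagen chain Col5a1 by 0.71 (adjusted p = 0.00206). With tolterodine against pBOO 4 rose, near the 26.0% of all genes called higher, and 0 fell, beside 15.3% called lower. Those that rose include Fn1 (fibronectin) at 1.35 (adjusted p = 5.72e-04) and the protease inhibitor Timp1 at 1.06 (adjusted p = 0.00918). Col1a1, with 2 unflagged tolterodine arrays, rose by 0.56 (adjusted p = 0.0172). With pBOO against sham Timp1 fell by 0.97 (adjusted p = 0.0134) and Fn1 rose by 0.87 (adjusted p = 0.00519). Between tolterodine and sham the Timp1 difference of 0.09 did not pass (adjusted p = 0.817). With tolterodine against sham 7 rose and 2 fell: Fn1 rose by 2.21 (adjusted p = 2.44e-04), Snai2 by 1.02 and Col5a1 by 0.77.

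Of 26 genes in the BMP and activin branch, 10 rose and 4 fell with pBOO against sham, beside 42.5% of all genes called. Id2 rose by 1.81 (adjusted p = 2.99e-05) and Id4 by 1.51 (adjusted p = 4.23e-05), both relatives of Id1, as did the BMP antagonist Chrd by 1.35 (adjusted p = 1.96e-04). With tolterodine against pBOO 4 rose and 8 fell, near the 41.3% of all genes called. The stress-induced ligand Gdf15 rose by 3.79 (adjusted p = 3.44e-05) and the activin binder Fst by 1.46 (adjusted p = 5.72e-04), and Id4 fell by 1.66 (adjusted p = 2.13e-05). Gdf15 and Fst were lower in pBOO than in sham, by 2.61 (adjusted p = 2.76e-04) and 0.88 (adjusted p = 0.00729). Between tolterodine and sham the difference was 1.18 for Gdf15 (adjusted p = 0.0235). For Fst it was 0.59 and did not pass (adjusted p = 0.0593). With tolterodine against sham 5 rose and 1 fell, near the 24.4% of all genes called. Those that rose include Chrd at 1.34, Id2 at 1.24 and the receptor Acvr1 at 0.85. Id3, like Id1 a BMP target, passed in none, with differences of -0.01 for pBOO against sham, -0.40 for tolterodine against pBOO and -0.41 for tolterodine against sham. The Id genes therefore did not move as 1 group.

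**Figure D4:**
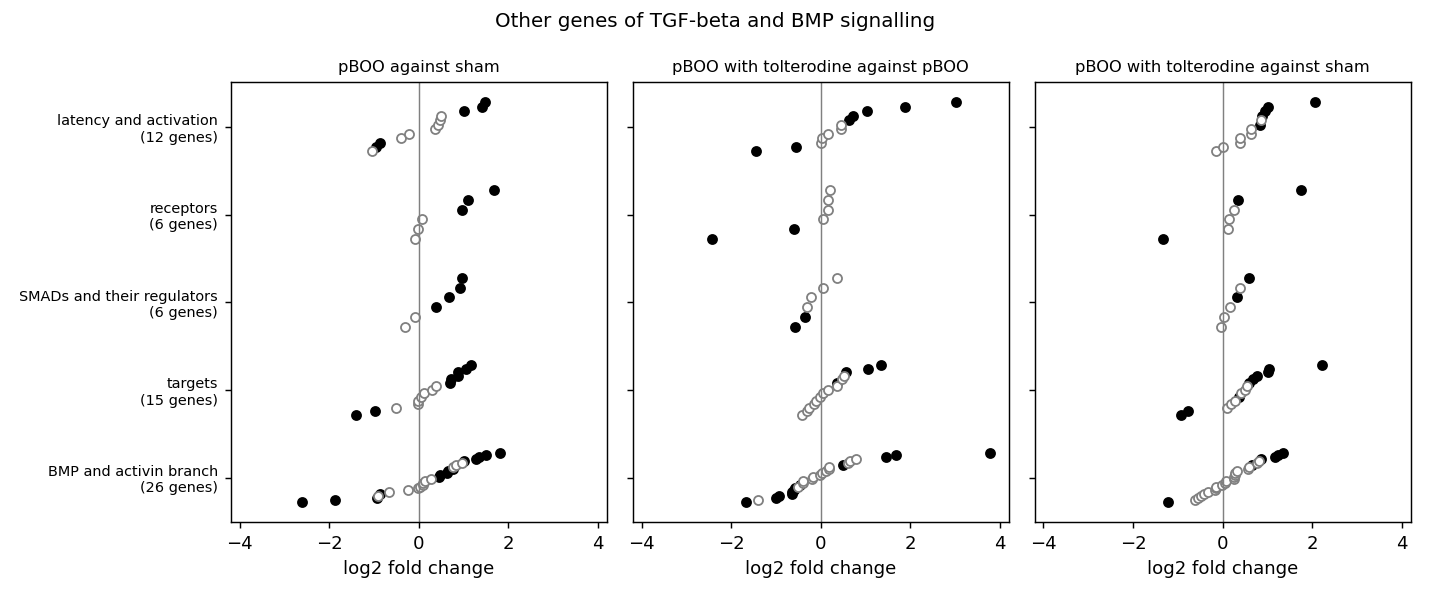
Log2 fold changes of the 65 tested genes of the pathway list, by role, in the 3 comparisons; filled points passed an adjusted p of 0.05. Points above 0 outnumber those below with pBOO against sham, where 26 genes rose and 8 fell, beside 20.8% and 21.7% of all genes.

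The genes whose pattern over the 9 arrays was most like that of a member were sought among genes with a value on every array, by the root mean square difference after each gene's own mean was subtracted. For Ltbp1 they were Mylk, the kinase of myosin light chain, at 0.145, the collagen receptor Ddr2 at 0.174 and Klhdc8b at 0.179, against a median of 1.12 over all genes. For Ccn2 they were Ube2c, a ubiquitin-conjugating enzyme of mitosis, at 0.143, the cation channel Trpv2 at 0.147 and Cd14, a lipopolysaccharide receptor of macrophages, at 0.147, against a median of 0.946. For Tgfb1 they were Emg1, which acts in ribosome assembly, at 0.0691, Dlk2 at 0.0825 and Tcirg1, a subunit of the vacuolar proton pump, at 0.0872, against a median of 0.540. As these genes were picked for their likeness, their own changes follow from that choice and are not given as results. Mylk is also among the smooth muscle markers summed below.

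Markers of several cell types moved beside these genes, and their part in the results was not tested. Their counts stand beside 42.5% of all genes called with pBOO against sham, 41.3% with tolterodine against pBOO and 24.4% with tolterodine against sham. With pBOO against sham the platelet, fibroblast and endothelial counts were near the share of all genes. Of 7 smooth muscle markers tested, 6 rose with pBOO against sham and 6 fell with tolterodine against pBOO. Their median log2 fold changes in these comparisons were 2.59 and -1.86, a larger shift than their sum shows. The sum also holds 3 markers that were not tested because of flagged spots. The summed level of 10 such markers, in multiples of an array's 75th percentile, was 359 to 551 with tolterodine, 601 to 719 in pBOO and 432 to 502 in sham. Of 10 macrophage markers, 7 fell with pBOO against sham and 9 rose with tolterodine against pBOO. Their sum was 67.4 to 78.0 with tolterodine, 15.0 to 16.6 in pBOO and 29.5 to 37.8 in sham. The sum of 6 neutrophil markers was 4.18 to 4.95 with tolterodine, 0.247 to 0.286 in pBOO and 1.82 to 2.91 in sham. Of these 6, 3 were not well above background on each pBOO array and 1 to 2 on each sham array, so the low sums are in part background. Like Ltbp1 and Smad7, the smooth muscle sum was highest in pBOO, and like Tgfb1 and Ccn2, the macrophage and neutrophil sums were lowest there. Of 4 platelet markers, 2 fell with pBOO against sham and 2 rose with tolterodine against pBOO, with sums of 2.70 to 2.96 with tolterodine, 1.50 to 1.57 in pBOO and 2.30 to 2.60 in sham.

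Fibroblast, urothelial and endothelial markers were summed in the same way. Fibroblast markers summed to 231 to 250 with tolterodine, 206 to 233 in pBOO and 166 to 191 in sham, with the medians in the order of those of Fstl1. Of 7 tested, 4 rose with pBOO against sham and 4 rose and 1 fell with tolterodine against sham. Urothelial markers summed to 233 to 330 with tolterodine, 213 to 311 in pBOO and 357 to 383 in sham, so the sham arrays were the highest, as they were for Tgfb3 and Id1. Of 5 tested, 3 fell with pBOO against sham, where the median log2 fold change of the 5 was -1.86. Endothelial markers summed to 3.68 to 4.15 with tolterodine, 3.77 to 5.97 in pBOO and 3.31 to 3.40 in sham, and of 7 tested 4 rose with pBOO against sham.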

How the data were processed

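Total RNA of rat bladder was measured on 9 single-colour (Cy3) Agilent arrays, 3 per group by title. Per the file headers, the deposited processed signal is an intensity, background-subtracted and spatially detrended by Feature Extraction 11.0.1.1 (the submitters' processing notes name 9.1), with no normalization between arrays. The raw median signal and median background, used for normexp (offset 50), are deposited intensities too, since a mean signal column was not used here. The deposited quality flags are 0 or 1. The authors' later steps are not given in the sources used here.

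Levels were computed as log2 of the processed intensity minus the 75th percentile of 42877 non-control spots per array. Spots flagged as non-uniform or as population outliers were left out, and spots of a probe were averaged. Probes well above background on 3 or more arrays were kept (22144 of 30367). Accessions gave 18005 probes 1 RefSeq symbol (GRCr8) and 12362 none. The probe with the highest mean stood for its gene, with 2 or more unflagged arrays required per group, which left 11047 genes, 10104 of them with a value on every array. The array's grid names an older genome build, so only RefSeq coordinates are printed. One limma fit (limma 3.58.1 in R 4.3.3; tables were read with data.table version 1.17.8) with 1 coefficient per group gave the 3 contrasts, with two-sided moderated tests, 6 residual and 2.78 prior degrees of freedom, and Benjamini-Hochberg adjustment at 0.05. The median SE was 0.171, and precision is limited by there being 3 arrays per group. The script was tested on simulated data.

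The members and lists were chosen with earlier results of these data known. Named were all members with each probe, and from the pathway list, per role and comparison, up to 3 called genes with the smallest adjusted p, plus Tgfbr1, Smad2, Smad3 and Id3. A further gene of that rule is not reported here. For Tgfb1, Ltbp1 and Ccn2 the 3 genes of most similar pattern were named. Arrays that share a scan were taken as 1 slide. Of the 82 list genes, 8 had no probe with that name, 4 were too dim and 5 were lost to flagged spots. Marker sums keep flagged spots. Alternatives covered scaling, background correction, flags, dim probes, the choice of probe, slide, replicate number, each array left out and exchanged group names.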

Additional observations from a re-analysis of the deposited data

How the results depend on the processing

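Apart from exchanged group names, single probes and slide 2 alone, where sham has 1 array, 20 alternatives were run, not all of which apply to each comparison. The 17 called fold changes of the members kept their direction in all 328 values these gave. In 320 values they also passed the threshold, and in 8 they did not: Tgfb3, Tgfb2 and Ltbp1 with tolterodine against sham. The 10 fold changes that did not pass gained the call in 17 values. The cause was not tested.

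With normexp, all genes called were 3026 for pBOO against sham (4695 otherwise), 2997 for tolterodine against pBOO (4563) and 960 for tolterodine against sham (2695). For the last comparison normexp left 3 members and 14 pathway genes (25 otherwise) called. Slide gave that comparison 4484 genes as a fixed block, 4276 as a random block and 5717 within slide 1, where 43 pathway genes were called. Slide 1 compares only tolterodine 1 and tolterodine 2 with sham 2 and sham 3. These pairs differed by more than 2-fold in 95 and 135 genes, the fewest within each of the groups. Within slide 2, pBOO against sham gave 2912 genes, with 1 sham array. No slide held both tolterodine and pBOO arrays. Each array left out in turn gave 1382 to 3743 genes and 15 to 34 pathway genes for tolterodine against sham, and 4 to 6 members. It gave 7 members throughout for pBOO against sham and 5 to 6 for tolterodine against pBOO.

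With the names pBOO and sham exchanged, pBOO against sham gave 0.82 for Tgfb1, -1.48 for Tgfb2, 1.35 for Tgfb3, -2.55 for Ltbp1, 1.57 for Ccn2, -0.68 for Smad7 and -1.47 for Fstl1. Tolterodine against pBOO then gave 1.04 for Tgfb2, -0.95 for Tgfb3, 0.97 for Ltbp1 and 2695 genes. In that comparison Ccn2 at 0.53, Tgfb1 at 0.12 and Smad7 at -0.12 lost the call, and Fstl1 gained it at 1.79. Likewise tolterodine against sham gave -0.43 for Tgfb2, 0.41 for Tgfb3, -1.58 for Ltbp1 and 4563 genes, with Tgfb1, Ccn2 and Smad7 now called at 0.93, 2.10 and -0.80 and Fstl1 no longer, at 0.32. The second Tgfb2 probe alone gave 1.16 for tolterodine against pBOO.

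Same-numbered arrays of different groups had correlations of their deviations from -0.08 to 0.18, and 4 of 9 arrays matched their own number best. A pairing by number was thus not seen, but with 3 arrays per group this check cannot exclude one. With a replicate block, 4349, 4225 and 2331 genes were called for pBOO against sham, tolterodine against pBOO and tolterodine against sham, and 7, 5 and 5 members. Signal over background limits Ltbp1 and Tgfbr3 in sham and the second probes of Tgfb2 and Tgfbr2.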
